A study of Mus musculus with 15 samples.

Results

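Endothelial transcripts were followed in cells that had been sorted as mesenchyme. The set held 36 mouse genes known from the endothelium of blood or lymphatic vessels, and all 36 were found among the 18718 genes tested. A gene was taken from the rows of the deposited table that carried exactly 1 gene symbol, and of several rows the one with the highest mean over the 15 arrays was kept. The genes were chosen by name, not by their values on these arrays, but with earlier results of these data known.

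Cells came from C57BL/6 mice aged 2 weeks and were sorted as PDGFRβ-positive after digestion with liberase and DNase I. Thymic cells were split into PDPN+BP3- and PDPN- populations, and cells of pooled inguinal, axillary and brachial lymph nodes into PDPN- cells and PDPN+ cells with BP3 (PDPN+BP3+) or without it (PDPN+BP3-). PDPN stands for podoplanin, Bst1 encodes BP3, and Enpep encodes Ly51, for which the PDPN- cells of either tissue were selected as well. Every one of these 5 populations had 3 arrays, from separate experiments (n = 3), with pools of 3 mice for thymus and of 10 to 11 mice for lymph node, so that pool size and tissue cannot be told apart. No treatment or transgene is given in the labels, and no population sorted as endothelium was analysed here.

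Endothelial cells form the inner lining of vessels and carry receptors for vascular endothelial growth factors and angiopoietins, and ETS and SOX transcription factors hold their identity. Pericytes wrap the small vessels from outside, and fibroblasts lie around the larger ones, so that both sit close to endothelium in intact tissue. Lymph nodes also have high endothelial venules, the vessels through which lymphocytes enter from blood.

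The sort antigens followed the labels. Pdpn read 7.90 to 9.19 on the 9 PDPN+ arrays and 2.77 to 3.48 on the 6 PDPN- arrays, in log2 units. Bst1 read 8.56 to 8.94 on the PDPN+BP3+ arrays and 2.06 to 3.80 elsewhere. Enpep read 7.63 to 8.15 on the PDPN- arrays and 3.36 to 4.77 on the PDPN+ arrays. Pdgfrb, by which all cells were selected, read 8.79 to 10.65. Array medians lay between 3.58 and 3.885, the lowest being that of thymus PDPN+BP3- replicate 1, and the median of the whole table was 3.80. That replicate also stood apart from its partners: it held the lowest of the population's 3 values for 59.6% of all genes and 63.9% of the members, and its T lineage markers averaged 3.49, against 4.77 and 4.88 on the other arrays of that population.

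The endothelial genes did not share a single order of the populations. A moderated F test over the 5 populations called 29 of the 36 members (80.6%), where it called 45.3% of all genes tested. Group means lay 2 or more log2 units apart for 9 members (25.0%), against 8.07% of all genes. At the other end, Sox17, Tal1, Nos3, Selp and Stab1 passed the threshold, an adjusted p under 0.05, in none of the 7 comparisons made. Of the members, 15 stayed with every group mean below the median of the table, as did 43.0% of all genes, and a value there need not stand above background. Those 15 include the VEGF receptors Kdr, Flt1 and Flt4, the angiopoietin co-receptor Tie1, and the transcription factors Erg, Sox17, Tal1 and Prox1. Lymph node PDPN+BP3- cells had the highest mean of the 5 populations for 11 members (30.6%, against 15% of all genes), and thymus PDPN- cells had the lowest for 17 (47.2%, against 17%). Of the 11, Tie1, Erg, Mmrn1, Myct1, Rasip1, Selp and Stab1 were among the 15 low members. Kdr, Tie1, Mmrn1, Nos3, Myct1, Rasip1 and Selp of the 17 were too. The ranks of the means were not tested.

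**Figure D1:**
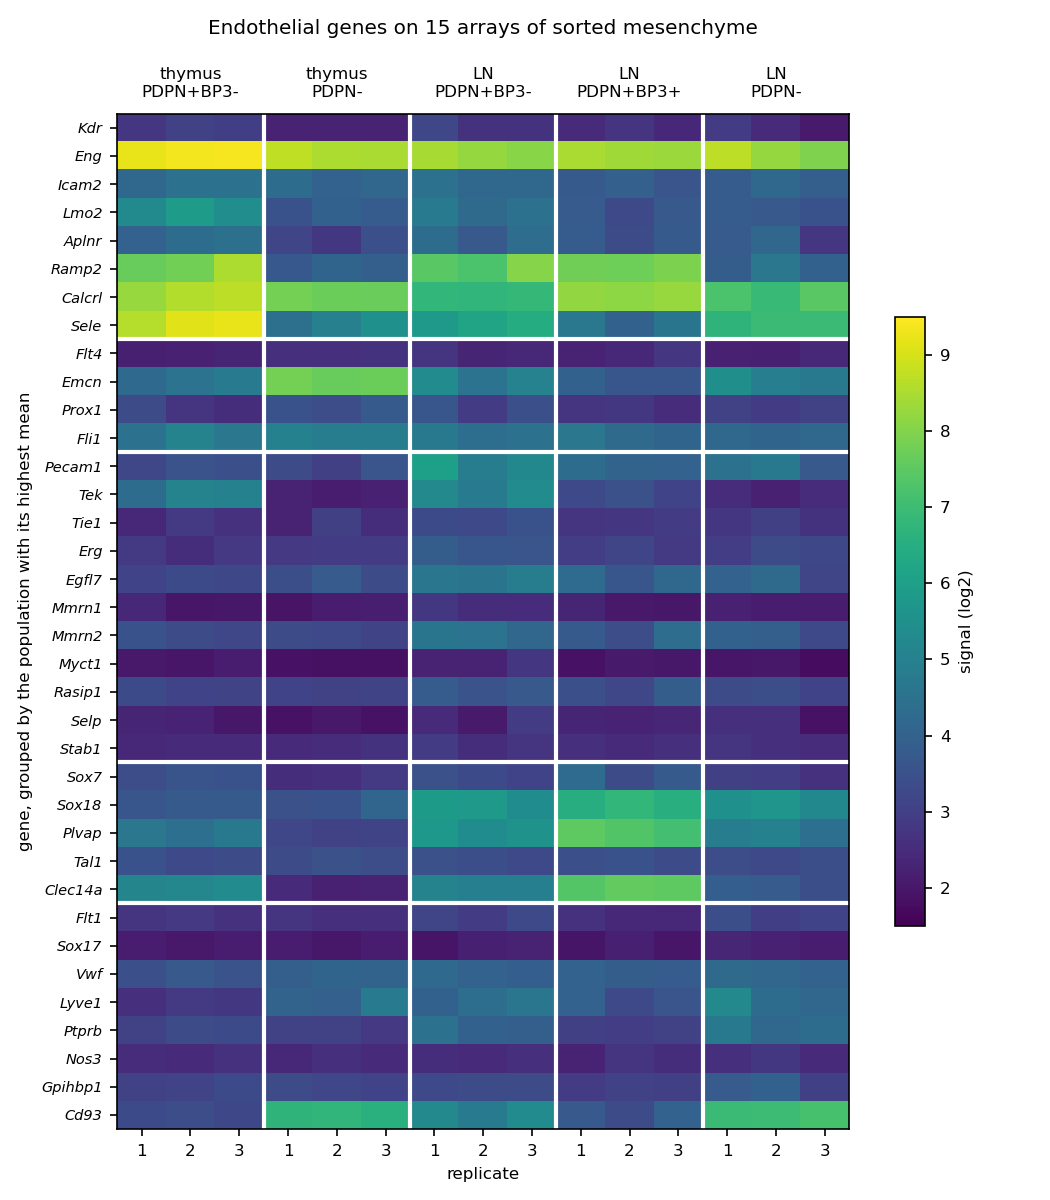
Log2 signal of the 36 endothelial genes (rows) on the 15 arrays (columns, 3 replicates for each population; colour scale in log2 units), with rows grouped by the population in which the gene's mean was highest. Eng is bright on every array, with values of 7.96 to 9.38, while Sele, Ramp2, Clec14a, Plvap, Emcn and Cd93 are bright in some populations and dark in others.

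Because each array measured a bulk sort, fewer cells of a type and less RNA per cell cannot be told apart. Markers of other cell types were read beside the members. The list of 13 endothelial markers, 10 of them members, had a mean level of 4.10 to 4.41 on the lymph node PDPN+BP3- arrays. On the other arrays it was 3.77 to 3.86 in lymph node PDPN+BP3+, 3.18 to 3.63 in lymph node PDPN-, 3.31 to 3.45 in thymus PDPN+BP3- and 3.14 to 3.21 in thymus PDPN- cells. Tie1, Kdr, Erg, Sox17 and Robo4 of that list stayed below the table median in all 5 populations. The 10 pericyte and smooth muscle markers averaged 9.40 to 10.01 on the PDPN- arrays and 6.08 to 7.65 on the PDPN+ arrays. The 8 fibroblast markers averaged 9.39 to 10.08 in both PDPN+BP3- populations, 7.06 to 7.28 in PDPN+BP3+ cells and 4.82 to 6.65 in PDPN- cells. The 6 platelet markers averaged 2.84 to 3.50 and the 9 macrophage and dendritic cell markers 2.53 to 3.27 over all arrays. Of the 36 members, 16 are also known from platelets, macrophages or blood progenitors.

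Among the tyrosine kinase receptors and their partners, Tek, the receptor of the angiopoietins, was high in the PDPN+BP3- cells of both tissues (transcript cluster 10505954). Tek read 4.32, 5.09 and 5.02 in thymus PDPN+BP3- cells and 2.26, 2.15 and 2.22 in thymus PDPN- cells. Lymph node Tek signals were 5.28, 4.78 and 5.36 in PDPN+BP3- cells, 3.25, 3.47 and 3.11 in PDPN+BP3+ cells and 2.53, 2.22 and 2.53 in PDPN- cells. The PDPN+BP3- arrays of the tissues overlapped, as did the PDPN- arrays, and the 3 PDPN+BP3+ arrays lay between them. PDPN+BP3- minus PDPN- was 2.60 ± 0.19 (adjusted p 1.72e-08) in thymus and 2.71 ± 0.19 (adjusted p 1.48e-08) in lymph node, where ± is the standard error of the limma fit and p is adjusted over all genes. PDPN+BP3+ cells lay below PDPN+BP3- cells by a difference of -1.86 ± 0.19 (adjusted p 2.02e-06).

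Ptprb, the endothelial phosphatase that acts on Tek, followed another order. Ptprb read 3.07, 3.36 and 3.30 in thymus PDPN+BP3- cells and 3.04, 3.06 and 2.84 in thymus PDPN- cells. Lymph node Ptprb signals were 4.47, 3.97 and 3.92 in PDPN+BP3- cells, 3.01, 2.94 and 3.05 in PDPN+BP3+ cells and 4.72, 4.21 and 4.34 in PDPN- cells. The PDPN+BP3- and PDPN- arrays of lymph node overlapped, and all 6 lay above the other 9 arrays. Lymph node minus thymus was 0.88 ± 0.16 (adjusted p 7.70e-04) in PDPN+BP3- cells and 1.44 ± 0.16 (adjusted p 1.07e-05) in PDPN- cells. Within lymph node the PDPN+BP3+ cells differed from PDPN+BP3- cells by -1.12 ± 0.16 (adjusted p 5.51e-05).

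Eng encodes endoglin, a co-receptor for ligands of the TGF-β family that is also found on mesenchymal cells. Eng read 9.22, 9.35 and 9.38 in thymus PDPN+BP3- cells and 8.72, 8.51 and 8.49 in thymus PDPN- cells. Lymph node Eng signals were 8.46, 8.22 and 8.07 in PDPN+BP3- cells, 8.49, 8.37 and 8.31 in PDPN+BP3+ cells and 8.70, 8.24 and 7.96 in PDPN- cells. The 3 thymus PDPN+BP3- arrays lay above the other 12. Their difference from thymus PDPN- cells was 0.74 ± 0.16 (adjusted p 0.00176), and lymph node minus thymus in PDPN+BP3- cells was -1.07 ± 0.16 (adjusted p 1.37e-04).

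The VEGF receptors Kdr, Flt1 and Flt4 and the co-receptor Tie1 had group means of 2.25 to 3.37. Kdr was higher in the PDPN+BP3- subset of thymus by 0.66 ± 0.18 (adjusted p 0.0125). Flt4, the receptor of lymphatic endothelium, was lower there with -0.37 ± 0.13 (adjusted p 0.0427), a call lost when any 1 of 5 of the 6 thymus arrays was left out, and after centring the arrays. Tie1 was highest in lymph node PDPN+BP3- cells, by 0.56 ± 0.16 (adjusted p 0.0188) over lymph node PDPN- cells and 0.74 ± 0.16 (adjusted p 0.00447) over the same subset of thymus. The first of these Tie1 calls was lost without PDPN- replicate 1 or 3 or PDPN+BP3- replicate 3 of lymph node (adjusted p 0.0519 to 0.0766). Flt1 was lower in lymph node PDPN+BP3+ than in PDPN- cells (-0.69 ± 0.13, adjusted p 7.04e-04).

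Among the transcription factors, Sox18, a SOX factor of developing blood and lymphatic vessels, separated the tissues in every subset (transcript cluster 10490731). Sox18 read 3.63, 3.78 and 3.77 in thymus PDPN+BP3- cells and 3.47, 3.53 and 4.11 in thymus PDPN- cells. Lymph node Sox18 signals were 5.85, 5.83 and 5.38 in PDPN+BP3- cells, 6.49, 6.80 and 6.56 in PDPN+BP3+ cells and 5.50, 5.66 and 5.22 in PDPN- cells. All 9 lymph node arrays lay above all 6 thymus arrays, and the 3 PDPN+BP3+ arrays lay above the other lymph node arrays. Lymph node minus thymus was 1.96 ± 0.18 (adjusted p 6.33e-07) in PDPN+BP3- cells and 1.76 ± 0.18 (adjusted p 4.52e-06) in PDPN- cells. PDPN+BP3+ cells exceeded lymph node PDPN- cells by 1.16 ± 0.18 (adjusted p 8.69e-05) and PDPN+BP3- cells by 0.93 ± 0.18 (adjusted p 0.00105). Its relatives did not separate the tissues in this way. Sox7 also had its highest mean in lymph node PDPN+BP3+ cells (3.81), above PDPN- cells by 0.94 ± 0.19 (adjusted p 0.00109). It was higher in the PDPN+BP3- subset of thymus too (0.82 ± 0.19, adjusted p 0.00306). For Sox7, lymph node minus thymus passed neither in PDPN+BP3- nor in PDPN- cells (adjusted p 0.556 and 0.631). Sox17 had group means of 2.04 to 2.25 with an F test adjusted p of 0.571.

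Lmo2, a LIM domain partner of Tal1 in blood and vessel development, was highest in thymus PDPN+BP3- cells. Lmo2 read 5.33, 5.93 and 5.41 in thymus PDPN+BP3- cells and 3.51, 3.97 and 3.82 in thymus PDPN- cells. Lymph node Lmo2 signals were 4.80, 4.26 and 4.48 in PDPN+BP3- cells, 3.79, 3.27 and 3.73 in PDPN+BP3+ cells and 3.83, 3.73 and 3.53 in PDPN- cells. The thymus PDPN+BP3- arrays lay above all others, and the lymph node PDPN+BP3- arrays came next without overlap. For Lmo2, PDPN+BP3- minus PDPN- was 1.79 ± 0.19 (adjusted p 1.51e-06) in thymus and 0.82 ± 0.19 (adjusted p 0.00416) in lymph node. Tal1 itself had group means of 3.35 to 3.45 (F test adjusted p 0.952). The ETS factors Erg and Fli1 differed less than Lmo2, with group means up to 0.96 and 0.76 apart, against 1.96 for Lmo2. Erg, with every group mean below the table median, was higher in lymph node PDPN+BP3- cells than in the thymus counterpart by 0.96 ± 0.13 (adjusted p 5.58e-05). Fli1 had group means of 4.15 to 4.91. In PDPN- cells its lymph node minus thymus difference was -0.76 ± 0.16 (adjusted p 0.00421), and in PDPN+BP3- cells it did not pass (-0.22).

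Among the junction, surface and adhesion proteins, Sele, which encodes E-selectin, the leukocyte adhesion receptor of activated endothelium, had its own pattern (transcript cluster 10351182). Sele read 8.62, 9.13 and 9.24 in thymus PDPN+BP3- cells and 4.45, 4.97 and 5.53 in thymus PDPN- cells. Lymph node Sele signals were 5.84, 6.18 and 6.44 in PDPN+BP3- cells, 4.69, 3.97 and 4.62 in PDPN+BP3+ cells and 6.70, 6.96 and 6.94 in PDPN- cells. The 3 thymus PDPN+BP3- arrays lay above the other 12. The lymph node PDPN- arrays came next, then lymph node PDPN+BP3- arrays, without overlap, and the thymus PDPN- and lymph node PDPN+BP3+ arrays overlapped below them. In thymus the subsets differed by 4.01 ± 0.25 (adjusted p 2.53e-09). In lymph node the same difference was -0.71 ± 0.25 (adjusted p 0.0545) and did not pass. Lymph node minus thymus was -2.84 ± 0.25 (adjusted p 6.27e-07) in PDPN+BP3- cells and 1.88 ± 0.25 (adjusted p 9.61e-05) in PDPN- cells, with opposite signs. Selp, which encodes P-selectin, had group means of 1.94 to 2.48 and passed in no comparison.

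Clec14a, a C-type lectin of vessel walls, was highest in lymph node PDPN+BP3+ cells (transcript cluster 10400510). Clec14a read 5.14, 5.20 and 5.37 in thymus PDPN+BP3- cells and 2.49, 2.23 and 2.26 in thymus PDPN- cells. Lymph node Clec14a signals were 5.09, 4.96 and 4.95 in PDPN+BP3- cells, 7.37, 7.58 and 7.50 in PDPN+BP3+ cells and 3.89, 3.80 and 3.43 in PDPN- cells. The arrays of no 2 populations overlapped, with thymus PDPN- cells lowest, but the PDPN+BP3- arrays of the tissues lay close. Lymph node minus thymus in PDPN+BP3- cells was -0.24 ± 0.13 (adjusted p 0.244) and did not pass. PDPN+BP3+ exceeded lymph node PDPN- cells by 3.78 ± 0.13 (adjusted p 1.61e-12) and PDPN+BP3- cells by 2.48 ± 0.13 (adjusted p 5.59e-10). PDPN+BP3- minus PDPN- was 2.91 ± 0.13 (adjusted p 3.05e-11) in thymus and 1.29 ± 0.13 (adjusted p 8.53e-07) in lymph node.

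Cd93, of the same lectin family, ran the other way (transcript cluster 10488382). Cd93 read 3.30, 3.40 and 3.22 in thymus PDPN+BP3- cells and 6.71, 6.77 and 6.57 in thymus PDPN- cells. Lymph node Cd93 signals were 5.27, 4.83 and 5.35 in PDPN+BP3- cells, 3.73, 3.36 and 4.02 in PDPN+BP3+ cells and 6.94, 6.97 and 7.16 in PDPN- cells. The 6 PDPN- arrays lay above all PDPN+ arrays, and lymph node PDPN+BP3- cells stood between them and the remaining PDPN+ cells. For Cd93, PDPN+BP3- minus PDPN- was -3.38 ± 0.16 (adjusted p 7.63e-11) in thymus and -1.87 ± 0.16 (adjusted p 1.52e-07) in lymph node. It was the 1 member that passed below PDPN- cells in that lymph node comparison.

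Plvap encodes the diaphragm protein of fenestrae and caveolae (transcript cluster 10579525). Plvap read 4.67, 4.42 and 4.74 in thymus PDPN+BP3- cells and 3.19, 3.09 and 3.15 in thymus PDPN- cells. Lymph node Plvap signals were 5.75, 5.38 and 5.59 in PDPN+BP3- cells, 7.53, 7.33 and 7.11 in PDPN+BP3+ cells and 4.90, 5.0 and 4.41 in PDPN- cells. The PDPN+BP3+ arrays lay above all others, and the thymus PDPN- arrays below all others. PDPN+BP3+ cells exceeded lymph node PDPN- cells by 2.55 ± 0.16 (adjusted p 2.36e-09), and lymph node minus thymus was 0.96 ± 0.16 (adjusted p 3.63e-04) in PDPN+BP3- and 1.63 ± 0.16 (adjusted p 3.10e-06) in PDPN- cells.

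Emcn, endomucin, a sialomucin of venous and capillary endothelium, was highest in thymus PDPN- cells (transcript cluster 10496359). Emcn read 4.22, 4.55 and 4.76 in thymus PDPN+BP3- cells and 7.82, 7.64 and 7.71 in thymus PDPN- cells. Lymph node Emcn signals were 5.36, 4.54 and 5.06 in PDPN+BP3- cells, 3.99, 3.65 and 3.65 in PDPN+BP3+ cells and 5.48, 4.92 and 4.72 in PDPN- cells. The 3 thymus PDPN- arrays lay more than 2 log2 units above any other array, whereas the lymph node PDPN- and PDPN+BP3- arrays overlapped. For Emcn, PDPN+BP3- minus PDPN- was -3.21 ± 0.21 (adjusted p 4.52e-09) in thymus and -0.05 ± 0.21 (adjusted p 0.91) in lymph node. The PDPN- cells of lymph node lay below those of thymus by a difference of -2.68 ± 0.21 (adjusted p 3.34e-07).

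Pecam1, the adhesion molecule CD31 of endothelial junctions and platelets, was highest in lymph node PDPN+BP3- cells (transcript cluster 10392221). Pecam1 read 3.21, 3.54 and 3.46 in thymus PDPN+BP3- cells and 3.36, 3.0 and 3.61 in thymus PDPN- cells. Lymph node Pecam1 signals were 6.0, 4.86 and 5.22 in PDPN+BP3- cells, 4.33, 4.05 and 4.01 in PDPN+BP3+ cells and 4.50, 4.73 and 3.72 in PDPN- cells. The lymph node PDPN+BP3- arrays lay above all others, with replicate 1 far above the other 2, and the 6 thymus arrays overlapped at the bottom. Lymph node PDPN+BP3- minus PDPN- was 1.04 ± 0.27 (adjusted p 0.00923), and lymph node minus thymus in PDPN+BP3- cells was 1.96 ± 0.27 (adjusted p 7.18e-05). Without lymph node PDPN- replicate 3 the first of these was 0.75 (adjusted p 0.0553), and without PDPN+BP3- replicate 1 it was 0.72 (adjusted p 0.0576). Cdh5, vascular cadherin, which was no member, read 5.32, 5.22 and 5.53 on the same arrays, 3.88, 3.45 and 3.39 in PDPN+BP3+ cells, 3.52, 3.40 and 2.70 in PDPN- cells of the node and between 2.62 and 2.98 in thymus. Its lymph node PDPN+BP3- arrays overlapped with no other population, and its difference from PDPN- cells was 2.15 ± 0.19 (adjusted p 1.84e-07).

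Of the other surface proteins, Icam2 had group means of 3.77 to 4.38, and Myct1, Gpihbp1 and Stab1 of 1.87 to 3.60. Icam2 was lower in PDPN+BP3+ than in PDPN+BP3- cells by a difference of -0.52 ± 0.14 (adjusted p 0.0175), a call lost without PDPN+BP3+ replicate 1 or 3 or PDPN+BP3- replicate 1 (adjusted p 0.0522 to 0.1). Gpihbp1, which carries lipoprotein lipase into capillaries, was lower in lymph node PDPN+BP3+ than in PDPN- cells with -0.59 ± 0.18 (adjusted p 0.0212). That Gpihbp1 call was lost without PDPN- replicate 1 or 2, without PDPN+BP3+ replicate 1 or 3 and with both groups fitted alone (adjusted p 0.0506 to 0.12).

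**Figure D2:**
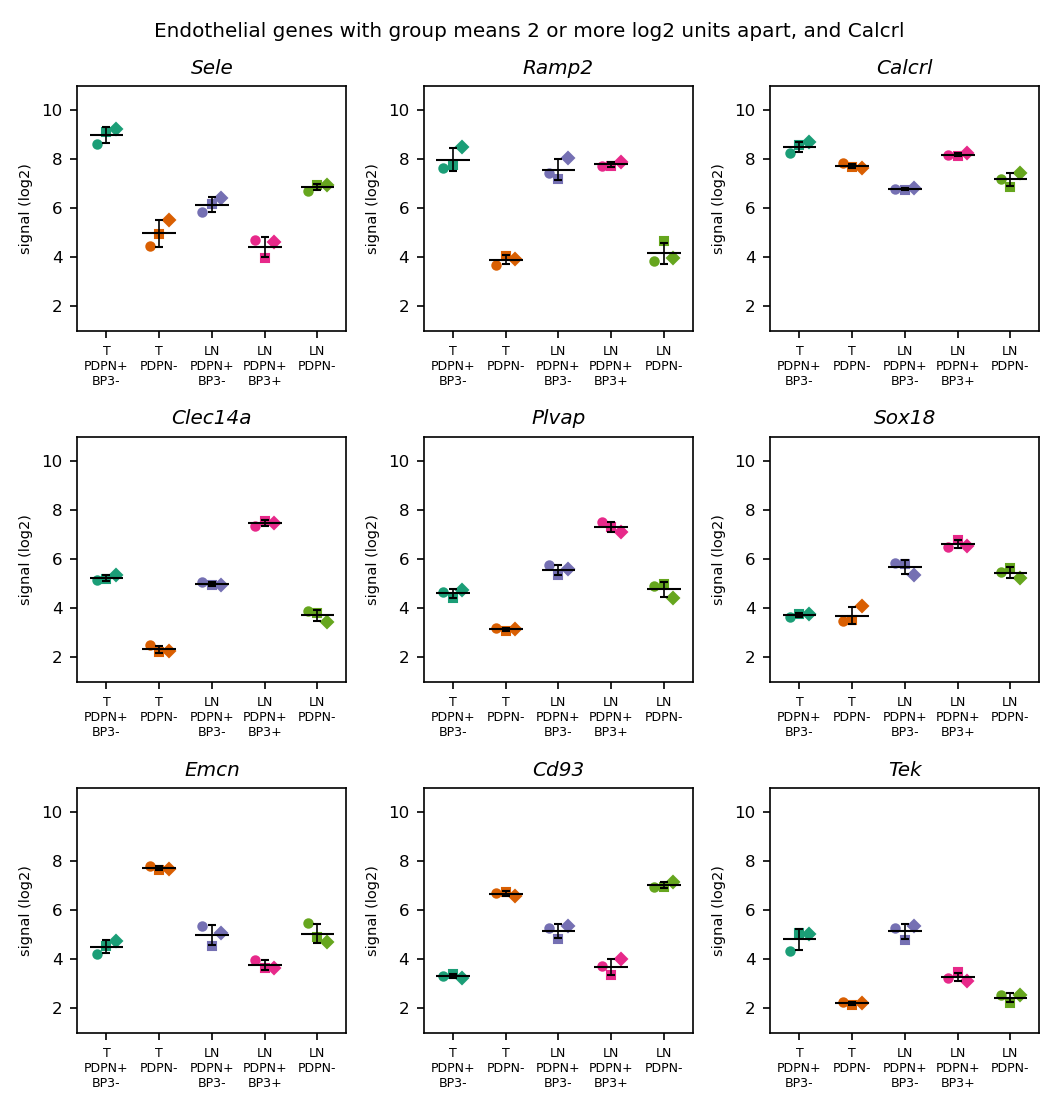
Log2 signal (vertical axis, 1 to 11) of 8 endothelial genes whose group means lay 2 or more units apart, and of Calcrl, on the 3 arrays of each of the 5 populations (T, thymus; LN, lymph node); points are arrays (circle, square and diamond for replicates 1, 2 and 3), horizontal lines are means and bars are ± 1 SD. Sele is highest in thymus PDPN+BP3- cells, Emcn in thymus PDPN- cells, Clec14a and Plvap in lymph node PDPN+BP3+ cells, and Ramp2 is near 8 in every PDPN+ population.

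Of the secreted and matrix proteins, Egfl7, which endothelium secretes, was highest in lymph node PDPN+BP3- cells. Egfl7 read 3.12, 3.30 and 3.23 in thymus PDPN+BP3- cells and 3.41, 3.80 and 3.36 in thymus PDPN- cells. Lymph node Egfl7 signals were 4.64, 4.57 and 4.85 in PDPN+BP3- cells, 4.30, 3.63 and 4.17 in PDPN+BP3+ cells and 4.01, 4.26 and 3.16 in PDPN- cells. These lymph node PDPN+BP3- arrays lay above all other arrays, while PDPN- replicate 3 of lymph node lay within the range of thymus. Lymph node minus thymus in PDPN+BP3- cells was 1.47 ± 0.23 (adjusted p 2.61e-04). PDPN+BP3- minus PDPN- in lymph node was 0.88 ± 0.23 (adjusted p 0.0104), and 0.55 (adjusted p 0.0504) without PDPN- replicate 3.

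Mmrn2, multimerin 2, a matrix ligand of Clec14a and Cd93, took a like order. Mmrn2 read 3.53, 3.35 and 3.20 in thymus PDPN+BP3- cells and 3.36, 3.26 and 3.14 in thymus PDPN- cells. Lymph node Mmrn2 signals were 4.60, 4.55 and 4.15 in PDPN+BP3- cells, 3.76, 3.38 and 4.35 in PDPN+BP3+ cells and 3.98, 3.91 and 3.26 in PDPN- cells. The lymph node PDPN+BP3- arrays lay above all PDPN- and thymus arrays and overlapped with PDPN+BP3+ arrays. Lymph node minus thymus in PDPN+BP3- cells was 1.07 ± 0.22 (adjusted p 0.00279), and all 4 secreted members, Vwf and Mmrn1 included, passed above 0 in that comparison, as did 11.8% of all genes. The calls of Vwf and Mmrn1 were lost after centring the arrays (adjusted p 0.0664 and 0.116), with the compared groups fitted alone (0.0717 and 0.0684), without lymph node PDPN+BP3- replicate 1 (0.0729 and 0.0747) and without thymus PDPN+BP3- replicate 1 for Vwf (0.056) or replicate 2 for Mmrn1 (0.0552). Vwf had group means of 3.58 to 4.14 and Mmrn1 of 2.07 to 2.63.

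The last group by role held G protein coupled receptors and signalling proteins. Ramp2 encodes the partner that turns the receptor encoded by Calcrl into a receptor of adrenomedullin. Of 2 rows for Ramp2, the one kept followed podoplanin (transcript cluster 10381298). Ramp2 read 7.65, 7.79 and 8.52 in thymus PDPN+BP3- cells and 3.70, 4.07 and 3.92 in thymus PDPN- cells. Lymph node Ramp2 signals were 7.45, 7.22 and 8.06 in PDPN+BP3- cells, 7.75, 7.74 and 7.91 in PDPN+BP3+ cells and 3.86, 4.66 and 3.97 in PDPN- cells. All 9 PDPN+ arrays lay above 7 and all 6 PDPN- arrays below 5. PDPN+BP3- minus PDPN- was 4.09 ± 0.25 (adjusted p 1.52e-09) in thymus and 3.41 ± 0.25 (adjusted p 2.15e-08) in lymph node, and PDPN+BP3+ minus PDPN- was 3.64 ± 0.25 (adjusted p 8.37e-09). The other Ramp2 row gave 1.99 to 2.39 on all arrays and so disagreed with the row kept.

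Calcrl was measured well above the table median on all arrays (transcript cluster 10484371). Calcrl read 8.27, 8.57 and 8.70 in thymus PDPN+BP3- cells and 7.84, 7.69 and 7.66 in thymus PDPN- cells. Lymph node Calcrl signals were 6.79, 6.76 and 6.83 in PDPN+BP3- cells, 8.20, 8.15 and 8.25 in PDPN+BP3+ cells and 7.22, 6.88 and 7.44 in PDPN- cells. No 2 populations overlapped, and lymph node PDPN+BP3- cells were lowest. For Calcrl, PDPN+BP3- minus PDPN- was 0.78 ± 0.14 (adjusted p 3.42e-04) in thymus, whereas in lymph node it was -0.39 ± 0.14 (adjusted p 0.0541). PDPN+BP3+ exceeded PDPN+BP3- cells of lymph node by 1.41 ± 0.14 (adjusted p 1.13e-06).

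Aplnr, the receptor of apelin, was higher in the PDPN+BP3- subset of thymus. Aplnr read 4.01, 4.34 and 4.46 in thymus PDPN+BP3- cells and 3.18, 2.80 and 3.45 in thymus PDPN- cells. Lymph node Aplnr signals were 4.33, 3.72 and 4.36 in PDPN+BP3- cells, 3.82, 3.33 and 3.75 in PDPN+BP3+ cells and 3.80, 4.13 and 2.76 in PDPN- cells. The thymus subsets did not overlap, with a difference of 1.13 ± 0.29 (adjusted p 0.00682), and the 3 lymph node populations did. Rasip1, a Ras-binding protein of vessel lumen formation, was higher in lymph node than in thymus PDPN+BP3- cells with 0.52 ± 0.15 (adjusted p 0.0213). The Rasip1 call was lost after centring the arrays (0.39, adjusted p 0.108) and without lymph node replicate 1 or 3 or thymus replicate 2 or 3 of that subset (adjusted p 0.0522 to 0.085). Nos3, the endothelial nitric oxide synthase, had group means of 2.49 to 2.62 (F test adjusted p 0.894).

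Of the lymphatic members, Lyve1, a hyaluronan receptor of lymphatic endothelium and of some macrophages, was lowest in thymus PDPN+BP3- cells. Lyve1 read 2.59, 2.85 and 2.79 in thymus PDPN+BP3- cells and 4.04, 3.96 and 4.79 in thymus PDPN- cells. Lymph node Lyve1 signals were 3.98, 4.39 and 4.63 in PDPN+BP3- cells, 4.0, 3.25 and 3.60 in PDPN+BP3+ cells and 5.26, 4.32 and 4.14 in PDPN- cells. The thymus subsets did not overlap, and the lymph node PDPN+BP3- and PDPN- arrays did. For Lyve1, PDPN+BP3- minus PDPN- was -1.52 ± 0.28 (adjusted p 5.53e-04) in thymus and -0.24 ± 0.28 (adjusted p 0.642) in lymph node. Prox1 is the transcription factor that sets lymphatic identity. Prox1 read 3.35, 2.70 and 2.56 in thymus PDPN+BP3- cells and 3.50, 3.38 and 3.76 in thymus PDPN- cells. Lymph node Prox1 signals were 3.64, 2.91 and 3.45 in PDPN+BP3- cells, 2.72, 2.81 and 2.50 in PDPN+BP3+ cells and 3.04, 2.91 and 3.08 in PDPN- cells. The thymus subsets did not overlap, and every group mean lay below the table median. Prox1 was lower in the PDPN+BP3- subset of thymus with -0.68 ± 0.20 (adjusted p 0.0182), a call lost without PDPN+BP3- replicate 2 or 3 or PDPN- replicate 3 (adjusted p 0.0663 to 0.083). Flt4, Prox1 and Lyve1, 3 of the 4 lymphatic members (75.0%), passed below PDPN- cells there, where 18.2% of all genes did. The first 2 of them did not pass without some single arrays, and Flt4 had an F test adjusted p of 0.0975. Mmrn1 did not pass (0.06). Of 8 further lymphatic genes measured, 4 (50.0%, where 10.3% of all genes did) passed above PDPN- cells in the same comparison, among them Ackr2 (2.81), Itga9 (2.37) and Sema3d (3.52).

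**Figure D3:**
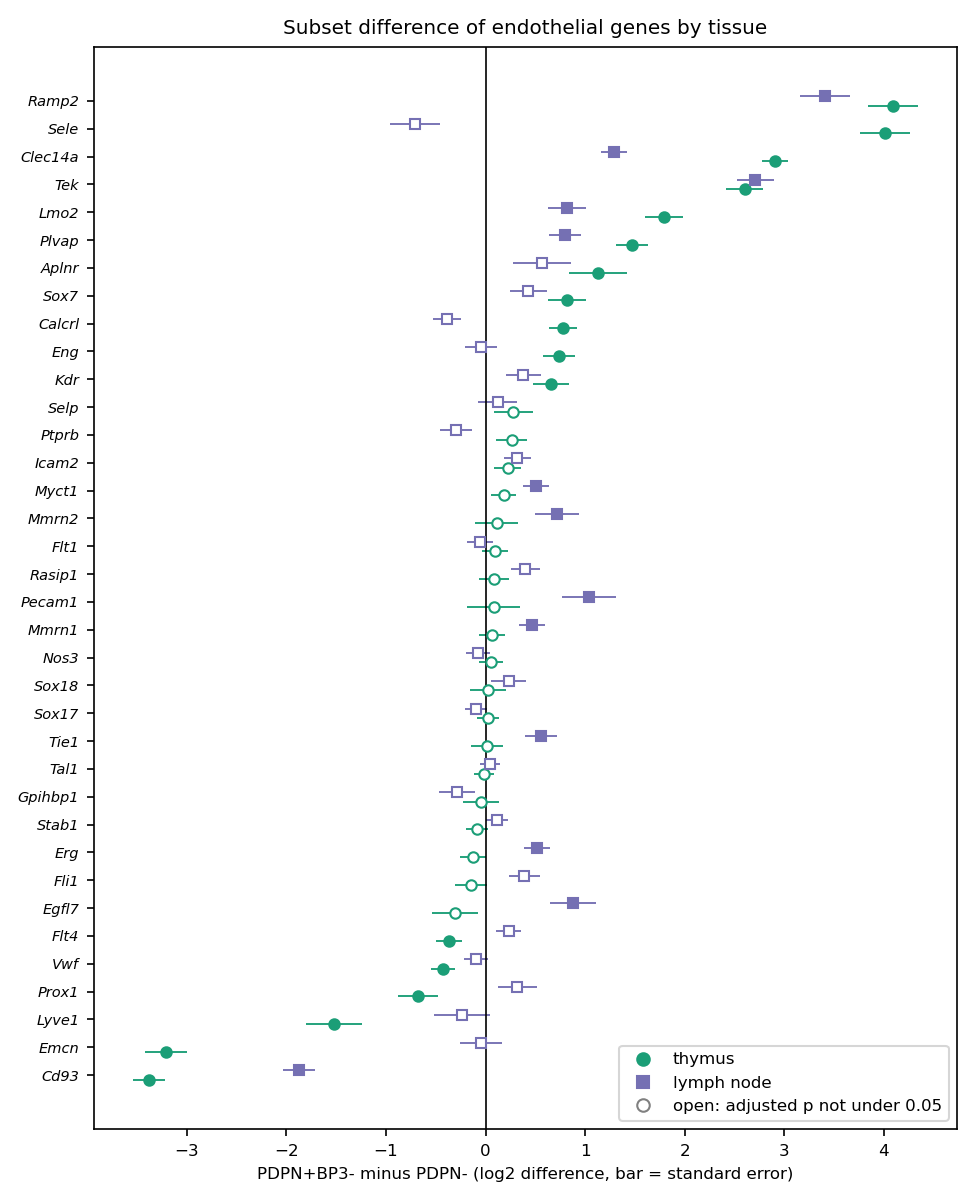
Log2 difference between PDPN+BP3- and PDPN- cells (horizontal axis) for the 36 endothelial genes (rows) in thymus (circles) and in lymph node (squares), with standard errors as bars; filled symbols have an adjusted p under 0.05. Ramp2, Clec14a, Tek, Lmo2 and Plvap lie to the right in both tissues and Cd93 to the left in both, whereas Sele, Calcrl and Emcn differ in position between the tissues.

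In thymus, PDPN+BP3- cells were higher than PDPN- cells for 11 members (30.6%) and lower for 6 (16.7%), where 10.3% of all genes were higher and 18.2% lower. The median difference over the 36 members was 0.08, against -0.05 over all genes. The higher members were Kdr, Tek, Sox7, Eng, Plvap, Lmo2, Aplnr, Clec14a, Ramp2, Calcrl and Sele. The lower ones were Flt4, Emcn, Vwf, Lyve1, Prox1 and Cd93. In the same comparison all 8 fibroblast markers were higher and all 10 pericyte and smooth muscle markers lower, and their part in the members' differences was not tested. Cd3e of the 5 T lineage markers was lower, with -0.98, and Krt8 and Psmb11 of the 5 thymic epithelial markers were lower as well. Of the 6 platelet markers, Pf4 (1.99) and Itgb3 (1.32) were higher and 4 did not pass. Of the 9 macrophage and dendritic cell markers, Cd68 (-1.71) was lower and 8 did not pass. Without PDPN+BP3- replicate 1 the members higher were 11 and those lower 4, since Flt4 and Vwf no longer passed.

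In lymph node, PDPN+BP3- cells were higher than PDPN- cells for 12 members (33.3%), where 13.4% of all genes were, and lower for 1, where 9.79% were. The median difference was 0.32 over the members and -0.01 over all genes. Without PDPN- replicate 3 the count of higher members was 8, since Pecam1, Tie1, Egfl7 and Mmrn2 no longer passed. That array held the lowest of its population's 3 values for 23 of 36 members (63.9%), against 33.4% of all genes. Glycam1, a sulphated mucin of high endothelial venules, read 8.85, 9.43 and 3.86 on the PDPN- arrays, so that replicate 3 lay near the thymus arrays, at 2.64 to 3.00. On the other lymph node arrays it read 10.07, 9.56 and 10.00 in PDPN+BP3- and 8.48, 8.60 and 9.01 in PDPN+BP3+ cells. Among the PDPN+BP3- arrays, replicate 1 held the highest value for 21 members (58.3%, against 30.6% of all genes) and replicate 2 for 0. All 8 fibroblast markers were higher and all 10 pericyte markers lower in this comparison too. Of the 6 platelet markers, Itga2b, Pf4 and Itgb3 were higher, and of the 9 macrophage and dendritic cell markers Lyz2 (1.38) and Tyrobp (0.80) were higher and Cd68 (-0.99) lower. Their part was not tested.

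These comparisons share no array, and 5 members (13.9%) were higher in both: Tek, Plvap, Lmo2, Clec14a and Ramp2. Of all genes, 6.44% were. They are 5 of the 11 higher in thymus and 5 of the 12 in lymph node. Cd93 was lower in both (2.78% of the members, where 6.57% of all genes were). No member was higher in 1 and lower in the other among those that passed, which was near the share of all genes. Of all genes, 0.288% were higher in thymus and lower in lymph node, and 0.711% were the reverse.

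**Figure D4:**
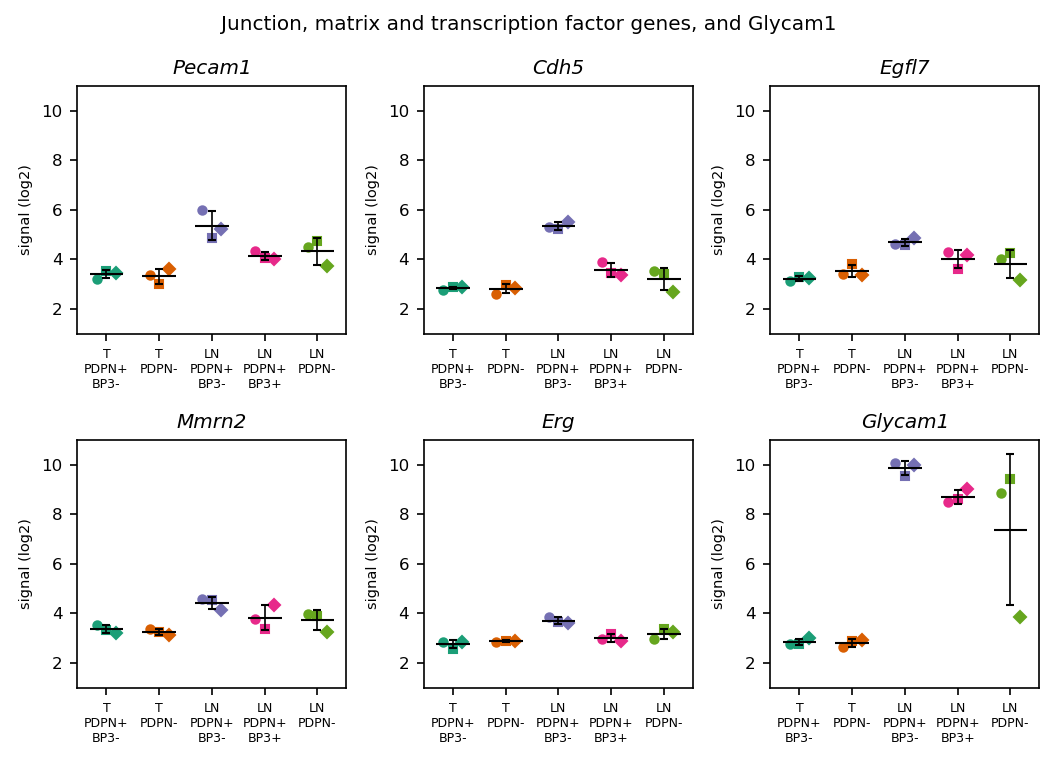
Log2 signal (vertical axis, 1 to 11) of Pecam1, Egfl7, Mmrn2 and Erg, and of the non-members Cdh5 and Glycam1, on the 3 arrays of each population (T, thymus; LN, lymph node; circle, square and diamond for replicates 1, 2 and 3; lines are means, bars ± 1 SD). The lymph node PDPN+BP3- arrays are highest on average in every panel, and lymph node PDPN- replicate 3 (diamond) lies below the other 2 for Pecam1, Cdh5, Egfl7, Mmrn2 and Glycam1.

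The PDPN+BP3+ cells of lymph node are the subset that carries BP3. Against PDPN- cells, 7 members were higher (19.4%, where 16.1% of all genes were) and 7 lower (19.4%, where 11.2% were), with a median of -0.02 over the members. The share of higher members thus lay near that of all genes. All 10 pericyte and smooth muscle markers were lower there, with a median of -1.58. Against PDPN+BP3- cells, Sox18, Plvap, Clec14a and Calcrl were higher (11.1%, where 8.49% of all genes were) and 14 members were lower (38.9%, where 7.74% were). The median difference there was -0.39 over the members and 0.01 over all genes. Lower members included the receptors Tek, Tie1, Flt1 and Ptprb, the junction gene Pecam1 and the adhesion receptor Sele, at -1.73 ± 0.25 (adjusted p 9.73e-05). The Tie1 call was lost without PDPN+BP3+ replicate 1 or 2 or PDPN+BP3- replicate 3 (adjusted p 0.0665 to 0.0916). All 8 fibroblast markers were lower and 5 of the 10 pericyte and smooth muscle markers higher in the same comparison. The venule address molecule Madcam1, which stromal cells below the node capsule also express, was higher with 3.95 ± 0.25 (adjusted p 7.09e-09). Of the 6 venule genes measured, Madcam1 and Gcnt1 (0.48) were higher (33.3%, where 8.49% of all genes were). Chst4 (-0.44) was lower (16.7%, where 7.74% were). Gcnt1 and Chst4 had every group mean below the table median.

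Between tissues, lymph node exceeded thymus in PDPN+BP3- cells for 13 members (36.1%, where 11.8% of all genes did) and lay below it for 4 (11.1%, where 5.29% did). The median was 0.30 over the members and 0.04 over all genes. The 4 lower members were Eng, Lmo2, Calcrl and Sele. In PDPN- cells, 7 members were higher (19.4%, where 4.42% of all genes were) and 3 lower (8.33%, where 5.19% were), with a median of 0.20 over the members. Pecam1, Sox18, Plvap and Ptprb were higher in lymph node in both subsets, 4 of 13 and 4 of 7, which was 11.1% of the members where 1.9% of all genes were. Calcrl was lower in both (2.78%, where 1.27% of all genes were). In PDPN- cells the Pecam1 call was lost without any 1 of replicates 1 and 2 of either tissue (adjusted p 0.0768 to 0.134). The Calcrl call there was lost without thymus replicate 1 or lymph node replicate 2 and with both groups fitted alone (adjusted p 0.0553 to 0.0903). Clec14a was higher in lymph node PDPN- cells with 1.38 ± 0.13 (adjusted p 1.89e-06), while in PDPN+BP3- cells its difference was -0.24 ± 0.13 (adjusted p 0.244). Of the 5 T lineage markers, 4 were lower in lymph node in either subset, and of the 5 thymic epithelial markers, 4 and 5 were. Of the 10 pericyte and smooth muscle markers, 8 were higher and 2 lower in lymph node in PDPN+BP3- cells, with a median of 1.11. Of the 8 fibroblast markers, 6 were higher in lymph node in PDPN- cells, with a median of 1.65, and the part of these lists was not tested.

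An interaction term, lymph node minus thymus, tested whether PDPN+BP3- minus PDPN- itself differed between the tissues. It passed above 0 for 7 members (19.4%, where 8.67% of all genes did) and below 0 for 5 (13.9%, where 4.05% did). The 7 became 4 after centring the arrays and 3 or 4 without thymus PDPN- replicate 1, 2 or 3, thymus PDPN+BP3- replicate 1 or 2, lymph node PDPN- replicate 2 or lymph node PDPN+BP3- replicate 1 or 3, and the 5 became 3 without lymph node PDPN+BP3- replicate 2. In the same term 9 of the 10 pericyte and smooth muscle markers passed above 0 and 7 of the 8 fibroblast markers below it, and their part was not tested. Sele had the widest of the 36, -4.73 ± 0.36 (adjusted p 2.50e-07), and Emcn had 3.16 ± 0.30 (adjusted p 2.85e-06). Clec14a was higher in PDPN+BP3- cells in both tissues, but by less in lymph node, with an interaction of -1.62 ± 0.18 (adjusted p 1.49e-05). For Calcrl the interaction was -1.17 ± 0.19 (adjusted p 6.49e-04) and for Cd93 it was 1.5 ± 0.23 (adjusted p 2.88e-04).

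Ligands of these receptors were measured in the same cells. Of 13 listed ligands, 4 were higher (30.8%, where 10.3% of all genes were) and 3 lower (23.1%, where 18.2% were) in the PDPN+BP3- subset of thymus. In lymph node 6 were higher (46.2%, where 13.4% of all genes were) and 3 lower (23.1%, where 9.79% were). Vegfc, the ligand of Flt4, read 6.57, 7.0 and 6.53 in thymus PDPN+BP3- cells and 2.81, 2.91 and 2.94 in thymus PDPN- cells, without overlap. Its PDPN+BP3- minus PDPN- difference was 3.81 ± 0.15 (adjusted p 9.85e-12) in thymus and 4.09 ± 0.15 (adjusted p 6.91e-12) in lymph node. Adm, which encodes adrenomedullin, the ligand of the Calcrl and Ramp2 pair, had differences of 2.73 ± 0.17 (adjusted p 2.97e-09) and 5.03 ± 0.17 (adjusted p 3.44e-12). The angiopoietins that bind Tek ran the other way: Angpt1 differed by -2.57 ± 0.16 (adjusted p 2.93e-09) in thymus, and Angpt2 by -5.09 ± 0.17 (adjusted p 1.73e-12) in thymus and -0.57 ± 0.17 (adjusted p 0.0258) in lymph node. Angpt2 read 3.23, 3.78 and 3.11 in thymus PDPN+BP3- cells and 8.65, 8.27 and 8.48 in thymus PDPN- cells. Lymph node Angpt2 signals were 8.18, 8.08 and 8.13 in PDPN+BP3- cells, 5.57, 5.36 and 5.31 in PDPN+BP3+ cells and 9.03, 8.43 and 8.64 in PDPN- cells. The thymus PDPN+BP3- arrays were lowest, and the PDPN+BP3+ arrays came next.

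Endothelial genes outside the set also split. Of 29 measured, 4 were higher (13.8%, near the 10.3% of all genes) and 11 lower (37.9%, where 18.2% of all genes were) in the PDPN+BP3- subset of thymus. In lymph node 10 were higher (34.5%, where 13.4% of all genes were) and 13 lower (44.8%, where 9.79% were). Angpt2, also on the list of ligands, was counted among the lower genes of both lists in both tissues. Esam, an adhesion molecule of endothelial junctions, read 7.72 to 8.51 on the 6 PDPN- arrays and 2.40 to 3.41 on the PDPN+ arrays. Its difference was -5.74 ± 0.13 (adjusted p 2.95e-14) in thymus. Adgrf5 and Gja4, the latter a gap junction protein of arteries, were lower as well, with -5.08 and -3.46. In lymph node, Gja4 (-4.4), Esam (-4.54), Adgrf5 (-4.03) and Procr (-3.71), all lower, had the smallest adjusted p of the list. The 10 higher genes in lymph node included Cdh5, Thbd, Cldn5 and Dll4. Cldn5 and Dll4 had means of 4.13 and 4.17 in PDPN+BP3- cells against 3.5 and 3.6 in PDPN- cells.

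Promoter sequence was available for 19 of the 36 members, from RefSeq on build GRCm38.p6, and for 4 of the 9 members whose group means lay 2 or more log2 units apart. The 250 bases upstream of the start of these 4 are shown because Tek, Emcn, Clec14a and Sele each had its own order of the populations. Capitals mark matches, on either strand, to the ETS core AGGAAG, the SOX core AACAAT or the GATA core AGATAA.
Tek (chr4:94739039-94739288, plus strand): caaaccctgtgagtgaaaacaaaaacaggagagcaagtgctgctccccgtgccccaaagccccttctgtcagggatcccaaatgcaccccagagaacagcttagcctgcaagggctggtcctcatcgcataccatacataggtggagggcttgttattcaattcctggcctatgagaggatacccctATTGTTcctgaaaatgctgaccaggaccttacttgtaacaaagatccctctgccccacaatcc
Emcn (chr3:137340828-137341077, plus strand): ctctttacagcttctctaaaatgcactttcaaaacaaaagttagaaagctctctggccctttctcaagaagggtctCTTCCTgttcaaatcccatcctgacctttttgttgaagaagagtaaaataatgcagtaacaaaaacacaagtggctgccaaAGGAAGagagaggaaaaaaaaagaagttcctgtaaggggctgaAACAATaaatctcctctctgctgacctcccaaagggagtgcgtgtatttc
Clec14a (chr12:58269259-58269508, minus strand): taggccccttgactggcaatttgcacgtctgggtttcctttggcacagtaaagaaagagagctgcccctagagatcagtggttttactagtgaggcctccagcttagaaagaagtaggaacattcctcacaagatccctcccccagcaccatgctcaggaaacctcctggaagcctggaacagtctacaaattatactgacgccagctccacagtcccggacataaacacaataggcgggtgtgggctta
Sele (chr1:164047984-164048233, plus strand): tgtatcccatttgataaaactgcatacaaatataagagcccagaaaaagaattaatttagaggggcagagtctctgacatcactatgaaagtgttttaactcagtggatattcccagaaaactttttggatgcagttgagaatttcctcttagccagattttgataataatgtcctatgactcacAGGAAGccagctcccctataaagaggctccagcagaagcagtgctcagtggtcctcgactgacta
The window of Tek held 1 SOX match, that of Emcn 2 ETS matches and 1 SOX match, that of Sele 1 ETS match and that of Clec14a no match to any of the 3. The marked matches do not overlap each other. The ETS core was in 12 of the 25 member windows (48.0%), some genes having several starts, and in 29.5% of 32851 promoter windows of the same length. For the SOX core these shares were 20.0% and 9.42%, and for the GATA core 12% and 9.99%. A match is a description of the letters and says nothing of binding in these cells.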

How the data were processed

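RNA of sorted cells was amplified (Ovation Pico WTA System V2) and hybridised to Affymetrix Mouse Gene 1.1 ST arrays, per the labels' protocols. The values deposited by the authors were RMA signals from the Affymetrix Expression Console, per the submitters' processing notes, on a log2 scale; their versions were not given in the sources used here, and the values, from 1.07 to 12.07, were taken to be base 2. The number of arrays limits the precision. Of 24758 rows, 20844 had 1 gene symbol in the platform annotation, 1735 had several and 2179 had none; 20817 matched a RefSeq gene table. The row with the highest mean was kept per gene, which left 18718 genes, with no filter on low values.

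The tests were fitted in limma 3.58.1 (R 4.3.3) with 1 mean per population over all 15 arrays (residual degrees of freedom 10, prior 5.5) and Benjamini-Hochberg adjustment over all genes of a comparison. The code was tested on simulated data. Values were printed array by array for the 18 members that passed with a difference of at least 1 or had a group mean of at least 6; other members were given by ranges and counts. Sort antigens were always named, and from lists outside the set up to 4 genes per comparison with the smallest adjusted p; Cdh5 and Glycam1 values were printed in all lymph node populations, and list genes beyond that rule were chosen after their values were seen. Members and lists were chosen with earlier results of these data known. Replicate numbers were shared by all populations, but whether same-numbered arrays came from the same experiment was not stated. Over 30 same-numbered pairs, deviations from the group means correlated at -0.174 to 0.288 (median -0.01). Pairs within thymus gave -0.174 to -0.142 and pairs within lymph node -0.066 to 0.288, which does not settle whether sorts shared a pool. Alternatives were a replicate block, an intensity trend, leaving out low rows, centring arrays on their median, the mean of a gene's rows, fitting the compared groups alone and leaving out each array.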

Additional observations from a re-analysis of the deposited data

Results flagged for a closer look

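For 12 members, 7 above 0 (19.4%, where 8.67% of all genes passed) and 5 below 0 (13.9%, where 4.05% did), the subset difference, PDPN+BP3- minus PDPN-, itself differed between the tissues, by the interaction term of the limma fit (lymph node minus thymus, log2, ± standard error, n = 3 arrays per population). Sele had -4.73 ± 0.36 (adjusted p 2.50e-07), from a thymus difference of 4.01 and a lymph node difference of -0.71. Emcn had 3.16 ± 0.30 (adjusted p 2.85e-06), with differences of -3.21 and -0.05. Clec14a, higher in PDPN+BP3- cells of both tissues, had -1.62 ± 0.18 (adjusted p 1.49e-05), and Cd93, lower in both, had 1.5 ± 0.23 (adjusted p 2.88e-04). Calcrl had -1.17 ± 0.19 (adjusted p 6.49e-04) and Eng -0.79 ± 0.22 (adjusted p 0.0274), with positive differences in thymus of 0.78 and 0.74. Lmo2 had -0.97 ± 0.27 (adjusted p 0.0247) and Egfl7 1.18 ± 0.33 (adjusted p 0.0256). The remaining 4 were Lyve1 with 1.28 ± 0.40 (adjusted p 0.045), Prox1 with 1.0 ± 0.28 (adjusted p 0.0294), Erg with 0.65 ± 0.18 (adjusted p 0.0274) and Flt4 with 0.60 ± 0.18 (adjusted p 0.0421). Pool size and tissue cannot be told apart in any of them. The interactions of Sele, Emcn, Clec14a, Cd93 and Calcrl passed under every alternative in which they were tested, whereas those of the other 7 did not pass without some single arrays.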

How the results depend on the processing

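The 101 pairs of member and comparison past the threshold were recomputed under 1248 alternative values; 118 of these missed the threshold, none changed direction, and 72 pairs passed throughout. Fitting a replicate block lost 1 pair, the Lyve1 interaction (1.28, adjusted p 0.0538), and moved the count of members lower in lymph node PDPN+BP3- than PDPN- cells from 1 to 2; an intensity trend and fitting the compared groups alone also gave 2. Leaving out low rows left 16 members to test. Members called by F were then 16 (29 with all rows); higher members were 7 (11) for the thymus subsets, 6 (12) for lymph node PDPN+BP3- against PDPN-, 7 (13) for the tissues in PDPN+BP3- cells and 4 (7) for the interaction; lower members were 4 (7) for PDPN+BP3+ against PDPN-, 7 (14) against PDPN+BP3- and 2 (1) for PDPN+BP3- against PDPN- in lymph node. Centring the arrays moved the median of all genes from 0.04 to -0.085 between the tissues in PDPN+BP3- cells and from 0.057 to -0.072 for the interaction, and gave 4 higher members for the interaction and 3 lower ones for lymph node PDPN+BP3- against PDPN-. Leaving out 1 array at a time gave the following ranges of higher and lower members. The thymus subsets had 11 to 11 and 4 to 6, lymph node PDPN+BP3- against PDPN- had 8 to 13 and 1 to 3, PDPN+BP3+ against PDPN- had 7 to 7 and 5 to 7, and PDPN+BP3+ against PDPN+BP3- had 4 to 5 and 10 to 16. The tissues had 11 to 17 and 4 to 4 in PDPN+BP3- cells and 5 to 10 and 2 to 4 in PDPN- cells. The interaction had 3 to 7 and 3 to 7, with 3 higher members without thymus PDPN- replicate 1, without thymus PDPN- replicate 3 or without lymph node PDPN+BP3- replicate 3, and the F test 27 to 31.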
